A study of Mus musculus with 12 samples.

Results

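The interaction of FST and LIN28B, the difference between the response to LIN28B with the FST transgene and the response without it, was read in 12 of 12 libraries of mouse cochlear organoids. For each gene it is (FST+LIN28B minus FST) minus (LIN28B minus control) on the log2 scale of the estimated counts summed per gene. A value of 0 means that LIN28B moved the gene by the same factor in both settings. All 12 libraries entered, 3 in each of the 4 conditions, and the 18780 genes that passed a filter on low counts were each given a value. FST+LIN28B organoids carried both transgenes, FST organoids the human FST transgene alone and LIN28B organoids the human LIN28B transgene alone, each behind a tetracycline-responsive promoter. Control organoids came from littermates with the R26 rtTA*M2 transactivator and neither response transgene. All 4 conditions carried that transactivator, which is driven from a broadly active locus and not from one cell type. All were grown from cochlear epithelial cells of 5-day-old mice of both sexes for 7 days with doxycycline at 0.5 µg/ml, in Matrigel with EGF, FGF2, the GSK3 inhibitor CHIR99021 and the HDAC inhibitor valproic acid. The study took the 3 samples of a condition from 3 different animals. In such bulk RNA, fewer cells of a type and less RNA per cell cannot be told apart.

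LIN28B is an RNA binding protein that blocks the maturation of let-7 microRNAs, which repress growth and fetal genes, and it is known for restoring immature traits to cochlear supporting cells. Follistatin, the product of Fst, is a secreted protein that binds Activins, and more weakly some BMPs, and keeps them from their receptors. Activin and TGF-β receptors act through SMAD2 and SMAD3, and BMP receptors through SMAD1, SMAD5 and SMAD9. Supporting cells surround the hair cells of the organ of Corti, share their progenitors and, in young mice, can divide or turn into hair cells.

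The let-7 family is shown because its targets are the genes through which LIN28B is best known to act. Of 11 mature let-7 family names of the mouse in the RefSeq table (build GRCm38.p6), 10 share the seed printed in capitals, bases 2 to 8. The microRNAs themselves were not measured.
let-7a-5p: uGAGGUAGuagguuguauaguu
let-7d-5p: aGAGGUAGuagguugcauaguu
let-7g-5p: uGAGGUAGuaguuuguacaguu
let-7i-5p: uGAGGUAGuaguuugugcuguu

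Both transgenes were active where the labels put them. Levels are in CPM, counts per M counts of a library after TMM scaling, and replicates 1, 2 and 3 are given in that order. Lin28b was at 256, 187 and 306 CPM in FST+LIN28B, 18.9, 22.1 and 16.9 CPM in FST, 480, 473 and 193 CPM in LIN28B and 22, 21.2 and 24.5 CPM in control. LIN28B replicate 3 lay inside the FST+LIN28B range and the other LIN28B libraries above it. Lin28b rose by 3.70 in log2 (SE 0.32) in FST+LIN28B against FST and by 4.08 (SE 0.33) in LIN28B against control, with edgeR adjusted p of 0.000401 and 9.55e-05. Its interaction was -0.38 (SE 0.41, edgeR adjusted p = 1). Fst was at 817, 334 and 719 CPM in FST+LIN28B, 445, 116 and 326 CPM in FST, 22.5, 19.9 and 17.2 CPM in LIN28B and 13.1, 7.96 and 7.72 CPM in control. The 6 libraries with the FST transgene lay above the other 6, and FST replicate 2 was the lowest of them. The interaction of Fst was 0.03 (SE 0.65). Reads of the human transgenes are counted on the mouse genes here. The dose of LIN28B and the presence of FST cannot be told apart where Lin28b itself differed between LIN28B and FST+LIN28B libraries.

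**Figure D1:**
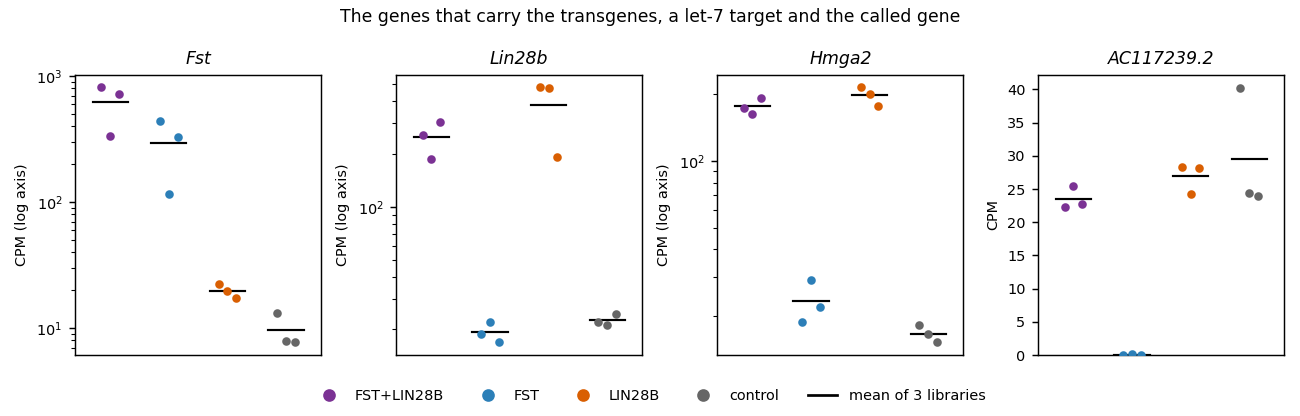
Level of Fst, Lin28b, the let-7 target Hmga2 and the accession gene AC117239.2 in each library, in CPM (log axis for the first 3). Points are libraries and bars the mean of 3. Lin28b of LIN28B replicate 3, at 193 CPM, sits within the FST+LIN28B range of 187 to 306 CPM, and AC117239.2 is near 0 in the 3 FST libraries alone.

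Library totals were 42.7 to 65.3 M estimated counts. FST replicate 2 stood apart. It had the lowest total, 3.24% of its counts in ribosomal protein genes against 3.96% to 4.59% in the other libraries, a mean correlation of 0.955 with the other FST libraries, and a quality weight of 0.0945 in limma's voom against 0.464 to 3.02 elsewhere. Counts over all genes, and list medians that moved by over 1.5 times or changed sign, are also given without it. How often a condition stood clear of the others within a list was not recounted without it. The epithelial markers Epcam, Cdh1 and Sox2 were present in all libraries, at 651 CPM or more for Epcam, 210 or more for Cdh1 and 27.3 or more for Sox2. The summed level of the 10 epithelial markers was 2034 to 2095 CPM in FST+LIN28B, 1898 to 2487 in FST, 2043 to 2211 in LIN28B and 2049 to 2224 in control. Summed levels of 4 Y-linked genes were low in 2 of 3 FST+LIN28B libraries and in 1 of 3 in each other condition, so the sexes were mixed unevenly.

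Few single genes passed the test of the interaction. In edgeR's quasi-likelihood test with Benjamini-Hochberg adjustment over 18780 genes, 1 gene was called above 0 (0.00532%) and 0 below it (0.0%) at an adjusted p under 0.05. At an unadjusted p under 0.05 there were 672 genes (3.58%), 263 above and 409 below 0. With no interaction in any gene, a share of about 0.05 would pass such a cut, and 3.58% is below that. DESeq2 on the same counts called 53, of which 15 (0.0799%) were above and 38 (0.202%) below 0, and 52 of the 53 had an unadjusted edgeR p under 0.05. The count therefore rested on the tool. Leaving out FST replicate 2 moved the unadjusted edgeR count to 2068, with 2 genes called, and the DESeq2 count to 198 (76 above and 122 below 0), among which were 49 of the 53. The genes below are read with this limit. "Called" means past edgeR's adjusted threshold unless DESeq2 is named, and "rose" and "fell" are used of called genes. For every gene named below other than AC117239.2 the edgeR adjusted p of the interaction itself was 0.0501 or more. The one gene that edgeR called, AC117239.2, is described at the end.

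Sorted by size, the genes DESeq2 called mostly showed a response to LIN28B that was smaller with FST. A response counted as sized at 0.5 or more in log2. Of the 53, 40 (75.5%) were blunted, that is, of the same sign or near 0 with FST and smaller than without it. Among these, 28 had a positive response to LIN28B alone and 12 a negative one. A further 7 were reversed, 4 gained a response only with FST, 1 was boosted and 1 had no sized response in either setting. Among the 672 genes at an unadjusted edgeR p under 0.05, 367 were blunted, 63 reversed, 78 gained, 19 boosted and 145 unsized. That set is smaller than the cut would pass with no interaction in any gene, so its members cannot be taken as interaction genes. Without FST replicate 2, 96 of 198 genes called by DESeq2 (48.5%) were blunted, 24 reversed, 32 gained, 3 boosted and 43 unsized, and 659 of the 2068 genes at an unadjusted edgeR p under 0.05 (31.9%) were blunted, so the share of blunted genes was lower. These classes use the values that make up the interaction and are a description, not a test. They were not counted over all 18780 genes tested, so the share of blunted genes has no background to be set against.

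Genes called with and without FST moved in the same direction. In FST+LIN28B against FST, 357 genes rose (1.9%) and 260 fell (1.38%). In LIN28B against control, 941 rose (5.01%) and 638 fell (3.4%). These comparisons share no library. They had 490 called genes in common, which is 79.4% of the list of FST+LIN28B against FST and 31% of that of LIN28B against control, and in all 490 the sign was the same. Over all 18780 genes the log2 values had a correlation of 0.601, and of 0.743 over the 10765 genes with a mean of 10 CPM in some condition. Genes are not independent replicates, and these are descriptions.

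The sizes differed more than the directions. Genes that rose in LIN28B against control had a median of 0.51 in FST+LIN28B against FST and of 0.89 in LIN28B against control, and those that fell had medians of -0.48 and -0.77. Genes that rose in FST+LIN28B against FST had medians of 0.94 and 0.94 in the same order, and those that fell -0.88 and -0.82. Without FST replicate 2 the genes that rose in LIN28B against control had medians of 0.28 and 0.58 and those that fell -0.32 and -0.59, while the genes that rose in FST+LIN28B against FST had 0.86 and 0.77 and those that fell -0.66 and -0.52. Choosing genes by one comparison inflates its own values, so the first pair of medians leans toward blunting and the second toward boosting. Without FST replicate 2 the called counts were 843 in FST+LIN28B against FST and 3151 in LIN28B against control. All libraries share 1 estimate of the spread in these fits.

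**Figure D2:**
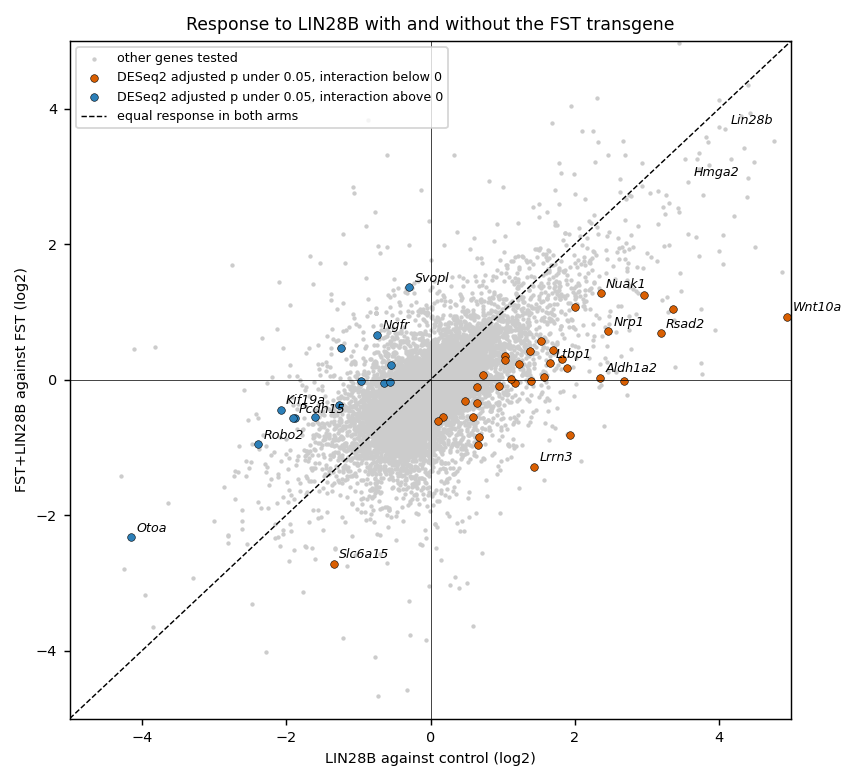
Log2 response to LIN28B with the FST transgene (y axis, FST+LIN28B against FST) and without it (x axis, LIN28B against control) for each gene tested. Coloured points are the genes DESeq2 called in the interaction, 49 of 53 of them inside axes that end at 5 in either direction. Of these 53 genes, 40 are blunted, with a smaller response with FST than without it and not classed as reversed.

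Conditions were also read by how often their libraries stood clear of all others, a count chosen after the data had been seen. It is not a measure of the interaction, since opposing effects of FST and LIN28B that simply add can give it too. In 205 genes (1.09%) the 3 FST+LIN28B libraries lay above the other 9, and in 166 (0.884%) below them. In 754 genes (4.01%) the 3 LIN28B libraries lay above the other 9, and in 665 (3.54%) below. The FST libraries stood alone above in 224 genes and below in 130, and the control libraries in 104 and 162. The order rested on FST replicate 2. Without it, the 3 FST+LIN28B libraries lay above the other 8 in 266 genes and below them in 251, the 2 FST libraries above the other 9 in 1525 and below in 947, the LIN28B libraries above in 825 and below in 805, and the control libraries above in 630 and below in 874. With 2 FST libraries in place of 3, that condition stands clear more easily. FST+LIN28B then had the lowest counts.

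**Figure D3:**
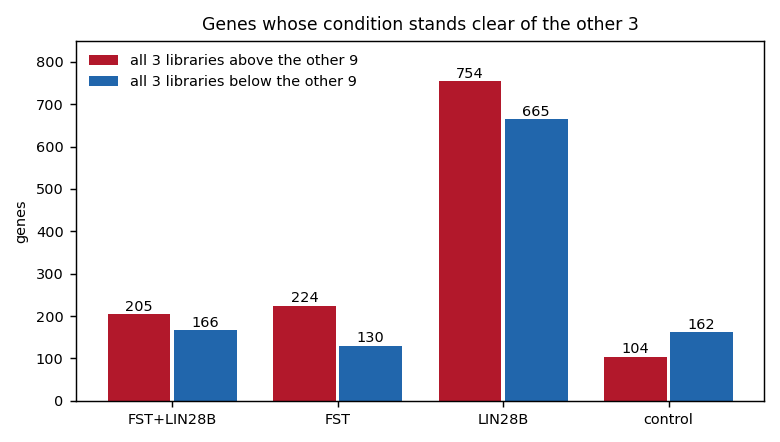
Number of genes whose 3 libraries of a condition lie above (red) or below (blue) all of the other 9 libraries. The LIN28B bars reach 754 and 665 genes, against 205 and 166 for FST+LIN28B, with FST replicate 2 included.

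The 12 genes of negative interaction with the smallest p, none of them called by edgeR and all 12 called by DESeq2, shared one pattern. In all 12 the LIN28B libraries were the highest 3 of the 12, and each gene was blunted. The genes were chosen by a negative interaction in these same libraries, which favors genes high in LIN28B. The pattern is therefore a description, not a test. Their responses were -0.10 to 1.27 in log2 in FST+LIN28B against FST and 0.94 to 4.95 in LIN28B against control, where all 12 rose. Their edgeR adjusted p in the interaction was 0.0501 to 0.238 and their DESeq2 adjusted p 7.04e-09 to 0.00297, and over all alternatives it ranged between 1.48e-09 and 1.

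Ltbp1, which encodes the latent TGF-β binding protein that stores the ligand, was at 86.4, 88.1 and 98.5 CPM in FST+LIN28B, 71.9, 80.9 and 78 CPM in FST, 272, 353 and 280 CPM in LIN28B and 113, 89.4 and 84.7 CPM in control. The LIN28B libraries were the highest 3 by a wide margin, and the FST libraries the lowest 3 by a narrow one. Ltbp1 rose in LIN28B against control and had 0.24 in log2 (SE 0.13, not called) in FST+LIN28B against FST, against 1.66 (SE 0.13), for an interaction of -1.42 (SE 0.18, edgeR adjusted p = 0.0501). It passed 0.05 with RLE size factors, without the filter and without the 10 most abundant genes, and also without control replicate 1. Thbs1, which encodes thrombospondin 1, a matrix protein that can release latent TGF-β, was at 223, 287 and 264 CPM in FST+LIN28B, 214, 183 and 183 CPM in FST, 486, 552 and 447 CPM in LIN28B and 180, 210 and 183 CPM in control. Its FST+LIN28B libraries lay just above FST and control, and its LIN28B libraries far above, with an interaction of -0.96 (SE 0.17). Ccn2, a matrix protein gene that responds to TGF-β and to YAP, was at 77, 79 and 66 CPM in FST+LIN28B, 71.5, 65.2 and 100 CPM in FST, 194, 182 and 172 CPM in LIN28B and 93.9, 102 and 88.8 CPM in control. Here the FST+LIN28B libraries lay below all control libraries, and the interaction was -1.04 (SE 0.20).

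A pair of genes belongs to vitamin A metabolism. Aldh1a2 encodes an enzyme that makes retinoic acid and Stra6 a membrane receptor for retinol uptake. Aldh1a2 was at 2.4, 3.67 and 2.7 CPM in FST+LIN28B, 2.4, 2.79 and 3.4 CPM in FST, 21.5, 15.2 and 14 CPM in LIN28B and 4.64, 2.52 and 2.73 CPM in control, so its rise with LIN28B had no counterpart in the presence of FST (0.03 in log2 against 2.35). Stra6 was at 21.9, 15.7 and 20.4 CPM in FST+LIN28B, 22.9, 19.4 and 18.1 CPM in FST, 39.9, 51.1 and 35.5 CPM in LIN28B and 19.7, 18.4 and 18 CPM in control. Their interactions were -2.32 (SE 0.38) and -1.23 (SE 0.22).

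Receptors and Wnt genes followed. Nrp1, a receptor shared by semaphorins and VEGF, was at 15.6, 16.6 and 13.8 CPM in FST+LIN28B, 9.07, 9.82 and 9.14 CPM in FST, 62.6, 111 and 59.5 CPM in LIN28B and 16.9, 12.3 and 13.2 CPM in control. Its level was lowest in FST libraries, and its interaction was -1.75 (SE 0.30). The Wnt ligand gene Wnt10a was scarce outside LIN28B organoids, at 0.251, 0.246 and 0.383 CPM in FST+LIN28B, 0.0798, 0.237 and 0.151 CPM in FST, 1.56, 3.95 and 1.61 CPM in LIN28B and 0.0838, 0.0928 and 0.0497 CPM in control. Its interaction of -4.02 (SE 0.75) rests on these low levels, and its mean reached the 2 CPM needed for naming in LIN28B alone. Apcdd1, which encodes a membrane inhibitor of Wnt signaling, rose in both comparisons, by 0.57 in FST+LIN28B against FST and by 1.53 in LIN28B against control. It was at 26.5, 21.8 and 26.3 CPM in FST+LIN28B, 14.4, 17.5 and 18.4 CPM in FST, 55.5, 53 and 41.8 CPM in LIN28B and 17.1, 16.9 and 17.8 CPM in control, with an interaction of -0.96 (SE 0.18).

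Nuak1, a kinase related to AMPK, also rose in both, by 1.27 (SE 0.15) in FST+LIN28B against FST and by 2.35 (SE 0.15) in LIN28B against control. Its levels were 57.9, 47.3 and 53.9 CPM in FST+LIN28B, 21.8, 21.2 and 22.8 CPM in FST, 154, 199 and 138 CPM in LIN28B and 37.8, 28.2 and 30.1 CPM in control, and the interaction was -1.08 (SE 0.21). Rsad2, an antiviral gene induced by interferon, was at 2.23, 1.72 and 3.12 CPM in FST+LIN28B, 1.77, 0.799 and 1.82 CPM in FST, 6.75, 5.3 and 5.72 CPM in LIN28B and 0.604, 0.798 and 0.547 CPM in control. Its interaction was -2.51 (SE 0.47), and edgeR called it once FST replicate 2 was left out. The remaining members were Gxylt2, a xylosyltransferase that modifies the sugars on Notch repeats, with an interaction of -1.52 (SE 0.28), and Sytl2, an effector of Rab27 in vesicle transport, with -1.42 (SE 0.23).

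**Figure D4:**
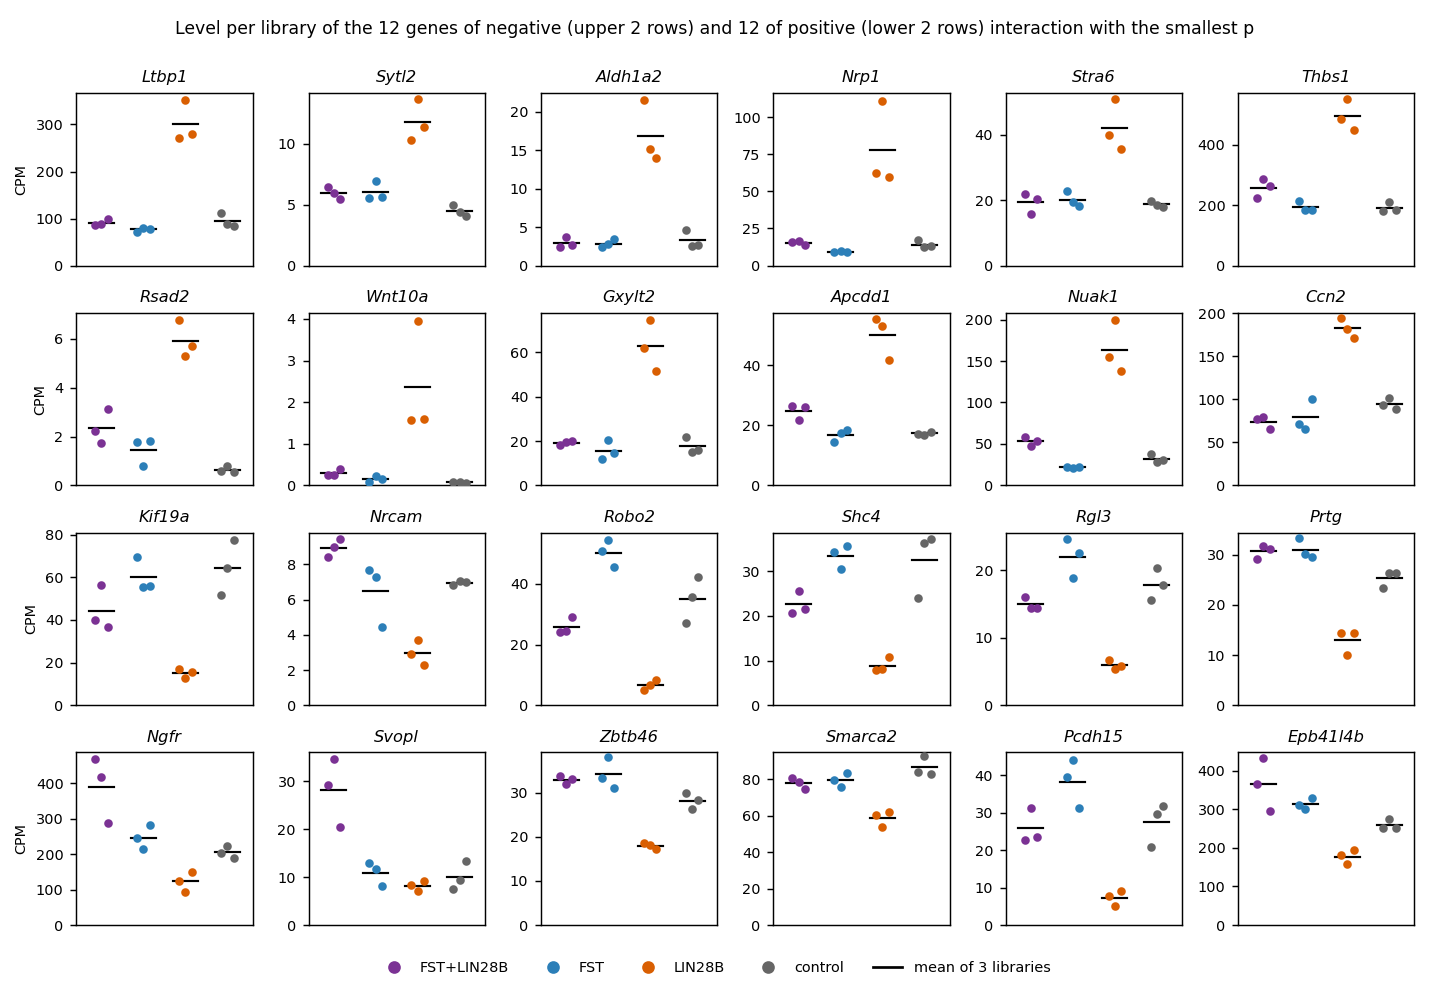
Level in CPM of each of 24 genes in each library, with FST+LIN28B, FST, LIN28B and control from left to right. Points are libraries and bars the mean of 3. In the upper 2 rows the LIN28B points are the highest in all 12 genes, and in the lower 2 rows they are the lowest in 11 of 12, the exception being Svopl.

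The 12 genes of positive interaction with the smallest p were largely the mirror image. None was called by edgeR (adjusted p 0.214 to 0.546), and DESeq2 called all 12 (adjusted p 6.28e-05 to 0.0492, and 3.49e-05 to 1 over all alternatives). The LIN28B libraries were the lowest 3 of 12 in 11 of them. Choosing genes by a positive interaction in the same libraries favors this pattern as well. In LIN28B against control 11 fell, whereas 2 of the 12 were called in FST+LIN28B against FST. By the size rule 10 were blunted falls, Ngfr was reversed and Svopl gained.

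Adhesion and guidance molecules made up a part of them. Robo2, a receptor for Slit proteins, fell in both comparisons, and was at 24.1, 24.6 and 29.3 CPM in FST+LIN28B, 51, 54.5 and 45.5 CPM in FST, 5.11, 6.54 and 8.36 CPM in LIN28B and 27.2, 35.8 and 42.1 CPM in control. The fall was -0.95 in log2 (SE 0.18) in FST+LIN28B against FST and -2.39 (SE 0.20) in LIN28B against control, which leaves an interaction of 1.44 (SE 0.26). Nrcam, a neuronal cell adhesion molecule, was at 8.44, 8.98 and 9.44 CPM in FST+LIN28B, 7.7, 7.28 and 4.46 CPM in FST, 2.89, 3.69 and 2.27 CPM in LIN28B and 6.81, 7.03 and 7.02 CPM in control. Its FST+LIN28B libraries were the highest 3 and its LIN28B libraries the lowest 3, for an interaction of 1.71 (SE 0.31). Pcdh15, a protocadherin of the tip links of hair cell bundles, was at 22.7, 31.2 and 23.5 CPM in FST+LIN28B, 39.5, 44.1 and 31.3 CPM in FST, 7.67, 5.13 and 9.1 CPM in LIN28B and 20.8, 29.6 and 31.7 CPM in control. It fell in LIN28B against control, and its interaction was 1.34 (SE 0.32).

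Ngfr, the low-affinity neurotrophin receptor gene that marks pillar cells among the supporting cells, had responses of opposite sign. It was at 468, 416 and 288 CPM in FST+LIN28B, 245, 214 and 282 CPM in FST, 125, 93.7 and 151 CPM in LIN28B and 203, 224 and 190 CPM in control. It fell in LIN28B against control (log2 -0.74, SE 0.20) and was 0.66 (SE 0.20, edgeR adjusted p = 0.103) in FST+LIN28B against FST, for an interaction of 1.40 (SE 0.28). Svopl, a relative of a synaptic vesicle transporter gene, rose in FST+LIN28B against FST, with 29.1, 34.6 and 20.6 CPM in FST+LIN28B, 13, 11.6 and 8.24 CPM in FST, 8.32, 7.13 and 9.23 CPM in LIN28B and 7.46, 9.35 and 13.5 CPM in control. Its FST+LIN28B libraries stood above the other 9, and its interaction was 1.66 (SE 0.35).

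Kif19a, a kinesin that limits the length of motile cilia, was at 39.9, 56.2 and 36.7 CPM in FST+LIN28B, 69.4, 55.5 and 55.8 CPM in FST, 17.2, 12.9 and 15.8 CPM in LIN28B and 51.5, 64.3 and 77.7 CPM in control. It fell in LIN28B against control, and its interaction was 1.63 (SE 0.27). Prtg, an immunoglobulin superfamily gene on the let-7 target list, fell in LIN28B against control, unlike most of that list, and was level in FST+LIN28B against FST (-0.01 in log2). Levels were 29.1, 31.8 and 31.1 CPM in FST+LIN28B, 33.2, 30.1 and 29.6 CPM in FST, 14.4, 10.1 and 14.4 CPM in LIN28B and 23.3, 26.4 and 26.2 CPM in control (interaction 0.95, SE 0.18). Smaller interactions came from Zbtb46, a zinc finger factor (0.59, SE 0.13), Smarca2, a SWI/SNF chromatin remodeling ATPase (0.52, SE 0.12), and Epb41l4b, a FERM domain protein (0.77, SE 0.18). Shc4, an adaptor of receptor kinases, and Rgl3, an exchange factor for Ral, had 1.31 (SE 0.24) and 1.04 (SE 0.20).

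Promoter windows are shown for 2 of the genes highest in LIN28B and 2 of those lowest in it. For Robo2 only the window of the most upstream start is shown. RefSeq windows of 300 bases, 250 before to 50 after the start (build GRCm38.p6), were matched for 18 of the 24 genes, 7 of the negative and 11 of the positive set. Motifs were searched on both strands, the SMAD motif as cagac or gtctg, the TEAD motif as ggaatg or cattcc, and the AP-1 motif as tgantca. Neighboring matches may share end letters. Capitals mark the matches, which in these windows are all of the SMAD motif. The SMAD motif was in 49.6% of all 32851 windows, the TEAD motif in 14.7% and the AP-1 motif in 7.81%. In the negative set 7 of 11 windows held the SMAD motif, 0 the TEAD motif and 1 the AP-1 motif, and in the positive set 3, 1 and 3 of 13 windows. Windows of one gene are not separate. By gene, 4 of 7 in the negative set and 3 of 11 in the positive set held the SMAD motif, against 53.2% of all genes. So common a motif as the SMAD motif is a description of letters only. Ltbp1 has a pair of annotated starts, and its second window held 2 matches.
Ltbp1, chr17:75005279-75005578, plus strand: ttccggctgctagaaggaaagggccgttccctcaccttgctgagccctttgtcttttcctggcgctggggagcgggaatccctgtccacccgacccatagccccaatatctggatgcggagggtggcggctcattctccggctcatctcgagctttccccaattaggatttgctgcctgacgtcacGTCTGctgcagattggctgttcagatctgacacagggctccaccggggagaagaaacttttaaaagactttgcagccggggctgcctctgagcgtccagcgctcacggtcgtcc
Ltbp1, chr17:75178531-75178830, plus strand: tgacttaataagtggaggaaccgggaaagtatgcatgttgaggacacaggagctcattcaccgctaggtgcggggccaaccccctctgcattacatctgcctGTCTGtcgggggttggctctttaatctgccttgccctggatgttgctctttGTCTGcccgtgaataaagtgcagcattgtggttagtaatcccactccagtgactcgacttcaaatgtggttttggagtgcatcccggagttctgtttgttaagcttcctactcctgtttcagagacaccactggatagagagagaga
Nrp1, chr8:128358823-128359122, plus strand: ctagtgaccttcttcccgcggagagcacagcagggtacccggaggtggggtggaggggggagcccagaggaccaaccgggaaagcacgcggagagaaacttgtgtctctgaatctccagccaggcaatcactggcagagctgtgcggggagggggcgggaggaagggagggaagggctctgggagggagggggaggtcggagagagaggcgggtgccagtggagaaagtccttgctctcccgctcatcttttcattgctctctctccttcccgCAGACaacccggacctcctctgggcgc
Ngfr, chr11:95587649-95587948, minus strand: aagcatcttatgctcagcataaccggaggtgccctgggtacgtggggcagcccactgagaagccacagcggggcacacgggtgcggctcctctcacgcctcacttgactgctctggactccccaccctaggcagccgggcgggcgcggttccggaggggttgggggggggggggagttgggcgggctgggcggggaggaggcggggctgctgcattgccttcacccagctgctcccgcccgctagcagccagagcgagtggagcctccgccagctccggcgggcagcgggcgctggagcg
Robo2, chr16:75447244-75447543, minus strand: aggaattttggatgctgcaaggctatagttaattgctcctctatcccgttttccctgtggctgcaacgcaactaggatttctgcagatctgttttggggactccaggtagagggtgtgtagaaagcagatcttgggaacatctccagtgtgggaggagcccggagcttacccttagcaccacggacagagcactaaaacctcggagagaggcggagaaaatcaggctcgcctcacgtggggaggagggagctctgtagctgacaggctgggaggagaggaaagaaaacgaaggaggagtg

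A further 4 genes of the 53 are named here that were chosen after their values had been seen. Slc6a15, a neutral amino acid transporter, was the one boosted gene of the 53. It fell in both comparisons (log2 -2.72 in FST+LIN28B against FST and -1.34 in LIN28B against control, interaction -1.38, SE 0.31), with 7.54, 6.35 and 8.24 CPM in FST+LIN28B, 44.5, 48.3 and 52.9 CPM in FST, 16.4, 13.8 and 18.5 CPM in LIN28B and 27.2, 38.4 and 57.7 CPM in control. Lrrn3, a leucine-rich repeat membrane protein, was of the reversed type, at 0.376, 0.529 and 0.453 CPM in FST+LIN28B, 0.846, 1.55 and 0.925 CPM in FST, 3.51, 2.69 and 2.4 CPM in LIN28B and 0.721, 0.649 and 1.8 CPM in control. Its interaction was -2.72 (SE 0.58). Otoa, which encodes otoancorin of the tectorial membrane attachment, was at 21.1, 28.2 and 13.2 CPM in FST+LIN28B, 120, 131 and 62.6 CPM in FST, 2.46, 2.23 and 3.28 CPM in LIN28B and 35.9, 37.2 and 68.7 CPM in control. It fell in both comparisons and had 1.82 (SE 0.52) in the interaction. Its FST+LIN28B libraries lay above the LIN28B libraries, while FST and control overlapped. Myc, the growth-promoting transcription factor gene, was at 7.16, 4.91 and 7 CPM in FST+LIN28B, 5.01, 4.08 and 4.95 CPM in FST, 12.9, 18.6 and 16.6 CPM in LIN28B and 5.28, 4.99 and 4.59 CPM in control, and was blunted at -1.25 (SE 0.26).

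The TGF-β family was read in the order of its roles. Over all genes tested the median interaction was -0.03 and 56.3% of genes lay below 0, and none of the lists below had a member called in the interaction by edgeR unless stated. Among 8 activin and TGF-β ligands tested, the median was -0.28, and -0.11 without FST replicate 2. Tgfb2, a TGF-β ligand, was at 484, 528 and 576 CPM in FST+LIN28B, 379, 428 and 440 CPM in FST, 996, 753 and 1016 CPM in LIN28B and 736, 718 and 735 CPM in control. Every library with the FST transgene lay below every library without it, and the responses to LIN28B were 0.35 (SE 0.13) in FST+LIN28B against FST and 0.34 (SE 0.13) in LIN28B against control, neither of them called, with an interaction of 0.01 (SE 0.18). Inhba, which encodes the subunit of Activin A, rose in LIN28B against control, with 65.4, 45.8 and 77.9 CPM in FST+LIN28B, 47.5, 60.7 and 56.1 CPM in FST, 47.6, 57 and 57.9 CPM in LIN28B and 36.2, 33.1 and 35.1 CPM in control, and control alone lay apart from the others. Its interaction was -0.43 (SE 0.23). Tgfb3 had an interaction of -0.60 (SE 0.20). Of 10 BMP and GDF ligands 8 lay below 0, with a median of -0.41, which was -0.16 without FST replicate 2. Bmp2 rose in LIN28B against control (0.392, 0.661 and 0.348 CPM in FST+LIN28B, 0.255, 0.237 and 0.303 CPM in FST, 2.46, 4.24 and 5.21 CPM in LIN28B and 0.754, 1.02 and 0.977 CPM in control), and every library with the FST transgene lay below every library without it (interaction -1.31, SE 0.49). Bmp4 rose there too, by 1.26, and was 0.65 in FST+LIN28B against FST.

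Secreted antagonists and latency proteins had 14 of 18 members below 0 and a median of -0.28, with Ltbp1 called by DESeq2 alone and Fstl3, a follistatin relative, at -1.22 (SE 0.57). Receptors had 6 of 14 below 0 and a median of 0.05, and 7 of 14 and 0.01 without FST replicate 2. In that list Acvr2b, a type II receptor for Activin, rose in both comparisons, by 0.89 in FST+LIN28B against FST and 0.74 in LIN28B against control, and Bambi, a decoy receptor, was at -0.73 (SE 0.23) in the interaction. The co-receptor gene Tgfbr3 was at 0.61 (SE 0.26), highest in FST+LIN28B.

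SMADs and their intracellular inhibitors were below 0 in 13 of 16 cases, with a median of -0.17. Of the 16, 1 rose in FST+LIN28B against FST and 6 in LIN28B against control, where 1.9% and 5.01% of all genes rose. In 8 (50%) the LIN28B libraries stood above the other 9, against 4.01% of all genes, a count that is not a measure of the interaction. Smad7, the inhibitory SMAD that these pathways induce, was at 13.1, 11.5 and 13.8 CPM in FST+LIN28B, 13.8, 13 and 13 CPM in FST, 30.8, 29.5 and 31.3 CPM in LIN28B and 22.6, 20.2 and 16.6 CPM in control. Its interaction was -0.68 (SE 0.17, edgeR adjusted p = 0.593). Ldlrad4, which also dampens TGF-β signaling, was at 2.87, 2.83 and 3.64 CPM in FST+LIN28B, 2.63, 3.28 and 3 CPM in FST, 8.28, 15.1 and 11.9 CPM in LIN28B and 7.36, 6.22 and 6.46 CPM in control. For both genes every library with the FST transgene lay below every library without it. The interaction of Ldlrad4 was -0.75 (SE 0.30).

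Target genes of the pathway followed. Of 14 SMAD2/3 response genes, 0 rose by edgeR in FST+LIN28B against FST (3 at an unadjusted p under 0.05 and 2 by DESeq2) and 6 in LIN28B against control (9 and 7). Over all genes 1.9% and 5.01% rose by edgeR in the same order, so 0 of 14 is near the share of all genes. The median response was -0.02 against 0.70, and the median interaction -0.41, with 12 of 14 below 0. In 8 of the 14 (57.1%) the LIN28B libraries stood above the other 9, against 4.01% of all genes, which is again not a measure of the interaction. At an unadjusted p under 0.05, 4 members were below 0 in the interaction and 0 above, and DESeq2 called Ccn2. Of all 18780 genes 409 were below and 263 above 0 at that cut. Among them Cdkn2b, a CDK inhibitor induced by TGF-β, was at 11, 9.53 and 11.3 CPM in FST+LIN28B, 6.05, 6.07 and 7.91 CPM in FST, 19.4, 23.7 and 13.7 CPM in LIN28B and 6.59, 5.73 and 5.9 CPM in control (interaction -0.97, SE 0.27). This list shares Smad7 and Ldlrad4 with the list of SMADs. Without FST replicate 2 the same list had 0 and 6 members that rose and a median interaction of -0.52.

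SMAD1/5/9 response genes, the BMP readout, had a median interaction of -0.71 over 10 members, and -0.65 without FST replicate 2. None rose by edgeR in FST+LIN28B against FST (1 at an unadjusted p under 0.05 and 1 by DESeq2), and 4 rose in LIN28B against control. Over all genes 1.9% and 5.01% rose in the same order, so no rise among 10 members is near the share of all genes. Id4, an inhibitor of helix-loop-helix factors, had a positive interaction of 0.66 (SE 0.23), with 33.6, 44.2 and 32.8 CPM in FST+LIN28B, 28.6, 29.5 and 34.5 CPM in FST, 16.5, 13.8 and 17.7 CPM in LIN28B and 18.4, 19.1 and 26.1 CPM in control. YAP-TEAD factors and targets, which share Ccn2 with the SMAD2/3 list, had 0 of 14 that rose in FST+LIN28B against FST by edgeR (6 at an unadjusted p under 0.05 and 3 by DESeq2) and 7 in LIN28B against control, with a median of -0.27. Their 0 of 14 is again near the share of all genes. Crim1, a transmembrane protein that binds BMPs, had -0.51 (SE 0.17). Mesenchymal transition genes had a median of -0.18, which turned to 0.09 without FST replicate 2, so no direction is given for them. Scx, a tendon and cartilage transcription factor gene, rose in LIN28B against control, and was at 3.7, 4.89 and 2.63 CPM in FST+LIN28B, 2.89, 4.15 and 4.93 CPM in FST, 18.3, 26.5 and 26.7 CPM in LIN28B and 12.3, 13.4 and 11.1 CPM in control (interaction -1.05, SE 0.35).

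**Figure D5:**
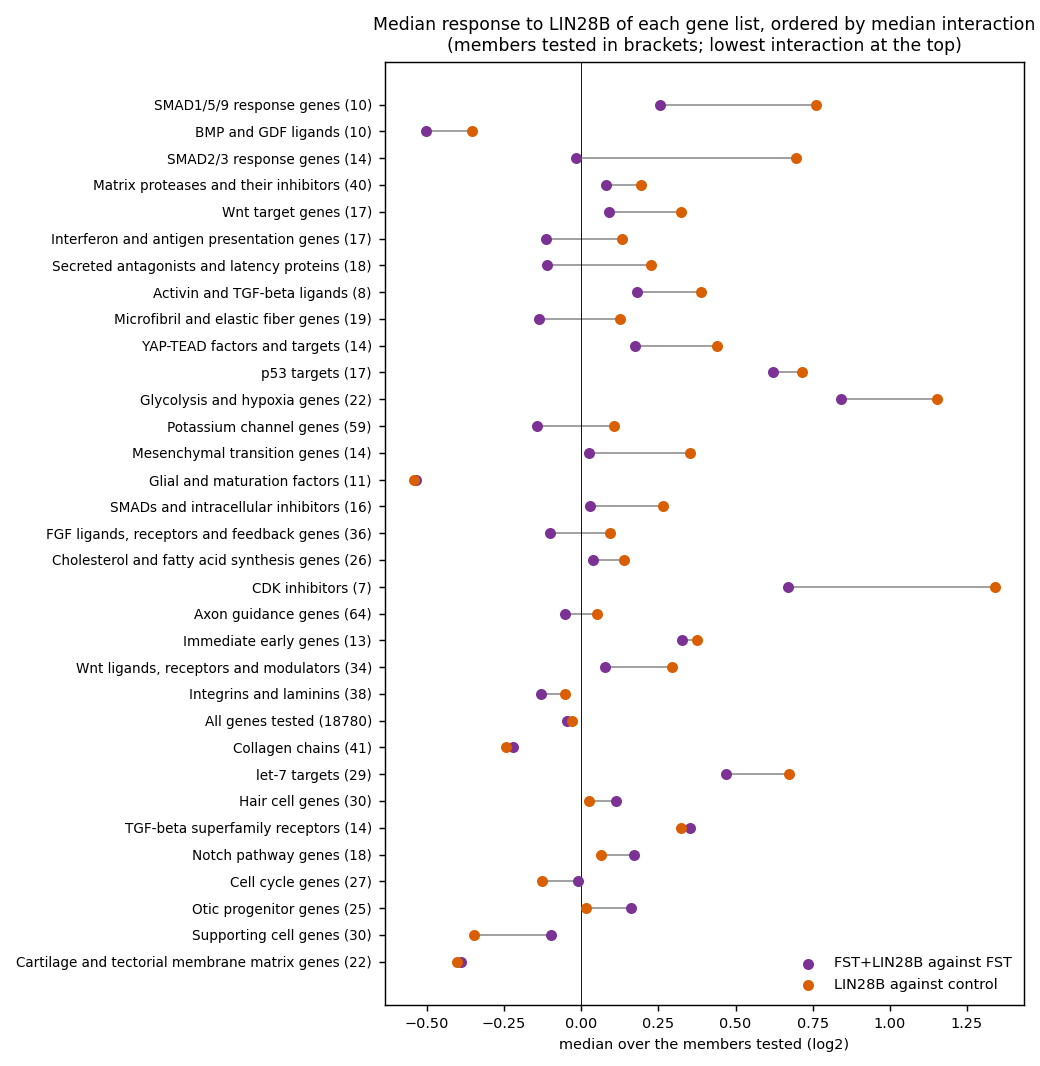
Median log2 response to LIN28B of each gene list with the FST transgene (purple) and without it (orange), ordered by the median interaction. SMAD2/3 response genes had medians of -0.02 and 0.70, let-7 targets 0.47 and 0.67 and all genes -0.05 and -0.03.

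Genes of the extracellular matrix were mixed. Of 40 matrix proteases and their inhibitors 31 were below 0, with a median of -0.32 that was -0.14 without FST replicate 2. In 9 of the 40 (22.5%) the LIN28B libraries stood above the other 9, against 4.01% of all genes. Htra1, a secreted protease that cleaves matrix and TGF-β family proteins, was at 0.971, 1.27 and 1.64 CPM in FST+LIN28B, 0.894, 0.907 and 1.61 CPM in FST, 18, 16 and 15.8 CPM in LIN28B and 5.72, 3.88 and 3.88 CPM in control, and DESeq2 called its interaction of -1.71 (SE 0.38). Every library with the FST transgene lay below every library without it. Adamts1, a protease of proteoglycans, had -1.47 (SE 0.45). Microfibril and elastic fiber genes had 14 of 19 below 0 and a median of -0.28, and 15 of 19 and -0.16 without FST replicate 2. Fbln5 and Mfap4, both components of elastic fibers and both called by DESeq2, were below 4 CPM in all libraries and had -1.52 (SE 0.38) and -2.71 (SE 0.59).

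Cartilage and tectorial membrane genes leaned to positive values, with 17 of 22 above 0 and a median of 0.23, and 17 of 22 and 0.36 without FST replicate 2. In FST+LIN28B against FST 5 fell and in LIN28B against control 7, where 1.38% and 3.4% of all genes fell. Otogl, which encodes an otogelin-like protein of the tectorial membrane, was among both, at 108, 124 and 120 CPM in FST+LIN28B, 269, 227 and 228 CPM in FST, 44.8, 29.4 and 46.9 CPM in LIN28B and 123, 162 and 180 CPM in control, and its interaction was 0.91 (SE 0.25). Collagen chains, listed apart, had a median of -0.02 over 41 members, which turned to 0.11 without FST replicate 2. Col2a1, the main cartilage collagen, was at 313, 336 and 320 CPM in FST+LIN28B and 446, 306 and 325 CPM in FST, ranges that overlap, and averaged 554 CPM in LIN28B and 1162 CPM in control. It fell in LIN28B against control and had an interaction of 0.92 (SE 0.26). Col11a2, a chain of cartilage and tectorial collagen fibrils, fell in both comparisons, at -1.28 in log2 in FST+LIN28B against FST and -2.26 in LIN28B against control (interaction 0.98, SE 0.30). Ucma, a secreted cartilage protein gene, had the opposite sign, at -2.75 (SE 0.59), with 0.141, 0.0756 and 0.104 CPM in FST+LIN28B, 0.239, 0.108 and 0.219 CPM in FST, 2.16, 2.61 and 1.45 CPM in LIN28B and 0.587, 0.371 and 0.662 CPM in control. Among other collagen chains, Col27a1 (0.67, SE 0.17) was above 0 and Col9a3 (-0.53, SE 0.23) below it. Itgbl1, an integrin-like secreted protein, fell in both comparisons and had 1.21 (SE 0.43).

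The let-7 targets, by contrast, responded to LIN28B in both settings. Of 29, 10 rose in FST+LIN28B against FST and 13 in LIN28B against control, where 1.9% and 5.01% of all genes rose. The median interaction was 0.02, and 0.10 without FST replicate 2, where 12 and 15 rose. Hmga2, a chromatin protein and a classic let-7 target, was at 174, 163 and 192 CPM in FST+LIN28B, 18.7, 29.1 and 22 CPM in FST, 215, 200 and 177 CPM in LIN28B and 18.2, 16.7 and 15.2 CPM in control. It rose by 2.92 (SE 0.16) with FST and by 3.56 (SE 0.16) without, and its interaction was -0.64 (SE 0.21). Trim71, another let-7 target and a regulator of progenitors, was at 40.6, 34.4 and 50.8 CPM in FST+LIN28B, 13.7, 14.2 and 11.7 CPM in FST, 25.6, 26.1 and 15.9 CPM in LIN28B and 11, 8.5 and 9.32 CPM in control. Its FST+LIN28B libraries were the highest 3, as were those of 7 members of the list in all, against 1 member for LIN28B. Over all genes the shares were 1.09% for FST+LIN28B and 4.01% for LIN28B. Ccnd2, a cyclin, rose in both comparisons, by 1.96 and 2.66 in the same order.

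Many p53 targets rose in both settings. Of 17, 9 rose in FST+LIN28B against FST and 12 in LIN28B against control, where 1.9% and 5.01% of all genes rose. All 17 lay below 0 in the interaction, with a median of -0.26, and 16 of 17 did so without FST replicate 2, where 4 and 14 rose. Cdkn1a, the CDK inhibitor p21, was at 146, 133 and 134 CPM in FST+LIN28B, 57.8, 86.7 and 84.2 CPM in FST, 212, 270 and 194 CPM in LIN28B and 98.7, 91.3 and 76.7 CPM in control (interaction -0.49, SE 0.23). Pmaip1, a cell death gene, rose by 1.31 and 2.06 in the same order. The 27 cell cycle genes had a median of 0.09, and of -0.01 without FST replicate 2.

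The hair cell genes varied among themselves. Of 30 tested, 6 rose in FST+LIN28B against FST and 5 in LIN28B against control, where 1.9% and 5.01% of all genes rose. The median interaction was 0.04, with 16 above 0. The FST+LIN28B libraries were the highest 3 in 7 members, against 0 for LIN28B, where the shares over all genes were 1.09% and 4.01%. Without FST replicate 2 the median was 0.18, with 19 of 31 above 0. Hair cell differentiation depends on Atoh1, which rose in FST+LIN28B against FST. It was at 2.91, 3.04 and 3.78 CPM in FST+LIN28B, 0.431, 0.216 and 0.522 CPM in FST, 1.88, 0.897 and 0.209 CPM in LIN28B and 0.319, 0.316 and 0.116 CPM in control, and the LIN28B libraries were spread from the control range upward. Pou4f3, a factor of young hair cells, was at 3.45, 6.28 and 3.45 CPM in FST+LIN28B, 0.112, 0.0216 and 0.236 CPM in FST, 3.05, 1.23 and 0.772 CPM in LIN28B and 0.134, 0.0557 and 0.0166 CPM in control. It rose in both comparisons, and its interaction of 0.53 had an SE of 1.08. Likewise that of Atoh1, 1.06, had an SE of 0.90, so a boost by FST was not detectable at this spread. Myo7a, a hair cell myosin, rose in LIN28B against control and had -0.60 (SE 0.28). Ush1c, a bundle protein gene, rose in FST+LIN28B against FST, with 0.34 (SE 0.11).

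Supporting cell genes were above 0 in 22 of 30 cases, with a median of 0.23, and in 19 of 30 with 0.18 without FST replicate 2. In 9 of them the LIN28B libraries were the lowest 3, against 0 for FST+LIN28B, where the shares over all genes were 3.54% and 0.884%. Slc1a3, a glutamate transporter of supporting cells, fell in both comparisons and was at 33, 36 and 35.4 CPM in FST+LIN28B, 48.5, 41.8 and 45.5 CPM in FST, 21.5, 19.1 and 20.3 CPM in LIN28B and 35.9, 39.4 and 38 CPM in control (interaction 0.51, SE 0.12). Sox2, the progenitor and supporting cell factor, was at 53.7, 60.9 and 61.8 CPM in FST+LIN28B, 55, 32.9 and 47.7 CPM in FST, 31.9, 27.3 and 34.5 CPM in LIN28B and 36.4, 52.6 and 44.2 CPM in control. Neither comparison called it, and its interaction was 0.89 (SE 0.26). Sox8, on the list of glial and maturation factors, fell in LIN28B against control and had 1.16 (SE 0.34).

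Among signaling genes that were highest in FST+LIN28B, Mfng, which encodes a glycosyltransferase that modifies Notch receptors, rose in FST+LIN28B against FST and was at 3.7, 4.29 and 3.64 CPM in FST+LIN28B, 0.814, 1.77 and 0.774 CPM in FST, 1.26, 1.48 and 0.852 CPM in LIN28B and 0.587, 0.798 and 0.911 CPM in control (interaction 1.15, SE 0.49). Fzd9, a Wnt receptor, was at 19.9, 21.1 and 17.8 CPM in FST+LIN28B, 8.57, 6.56 and 7.59 CPM in FST, 12, 10.9 and 12.9 CPM in LIN28B and 6.74, 8.37 and 5.95 CPM in control and rose in both comparisons (interaction 0.61, SE 0.22). Hmx2, an otic homeobox gene, rose in FST+LIN28B against FST and had 1.00 (SE 0.33). Other members of the same pathways went the other way. Notum, a secreted enzyme that inactivates Wnt proteins, rose in both comparisons, by 1.22 in FST+LIN28B against FST and by 2.02 in LIN28B against control, and the ligand gene Fgf16 did so by 1.30 and 1.97. Fgf1 fell in FST+LIN28B against FST and had -0.69 (SE 0.30).

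Wnt targets had a median interaction of -0.31 over 17 genes, which was -0.08 without FST replicate 2. Glycolysis and hypoxia genes had -0.22 over 22 genes, with 19 below 0, and without FST replicate 2 they had -0.50, with 21 below 0. Cholesterol and fatty acid synthesis genes had -0.12 over 26 genes, with 21 below 0, and -0.21 without that library, with 25 below 0. Interferon and antigen presentation genes had -0.30 over 17. For the 64 axon guidance genes, the 59 potassium channel genes and the 11 glial and maturation factors the median changed sign when FST replicate 2 was left out.

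Markers of other cell types were read beside these groups. Fibroblast and periotic mesenchyme markers summed to 1092 to 1600 CPM in FST+LIN28B, 1094 to 2052 in FST, 1494 to 2137 in LIN28B and 1675 to 1788 in control. Most of that was Dcn and Lum, at 476 CPM or more each, while Col1a2 and Col3a1, which define fibroblasts, stayed at 1.41 CPM or less. None of the 9 tested was called in either comparison by edgeR or DESeq2, and at an unadjusted p under 0.05 there were 0 in FST+LIN28B against FST and 2 in LIN28B against control, 1 higher and 1 lower. Of all 18780 genes edgeR called 617 and 1579 in the same order, so 0 of 9 is near the share of all genes. Postn varied most, between 1.25 and 140 CPM, and also varied within each condition. Endothelial markers summed to 81.6 to 116 CPM in FST+LIN28B, 50.5 to 59.6 in FST, 22.1 to 45.3 in LIN28B and 29.3 to 44.9 in control. Most of this was Tek, which encodes an angiopoietin receptor, at 95.6, 73.5 and 70.4 CPM in FST+LIN28B, 44.4, 25.9 and 38.5 CPM in FST, 18.1, 9.78 and 31.7 CPM in LIN28B and 15.3, 31.8 and 21.3 CPM in control, while Kdr stayed at 1.3 CPM or less and Cdh5 and Cldn5 were too low to be tested. Neuron markers summed to 28.2 to 35.4 CPM in FST+LIN28B, 15 to 18.9 in FST, 27.8 to 31 in LIN28B and 16.7 to 18.7 in control. Schwann cell markers, led by Sox10, which the otic epithelium also expresses, and Mbp, summed to 216 to 249 CPM in FST+LIN28B, 276 to 364 in FST, 180 to 244 in LIN28B and 269 to 327 in control. Immune markers were at 7.26 CPM or less and the erythroid marker tested at 6.78 or less, and for both lists the highest library was FST replicate 2. The part of these cell types in the interaction was not tested.

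AC117239.2, the one gene called by edgeR, is an accession gene of 515 bases on chromosome 18 that lies within Commd10. It was at 22.3, 25.4 and 22.7 CPM in FST+LIN28B, 0, 0.216 and 0.0673 CPM in FST, 28.3, 24.3 and 28.1 CPM in LIN28B and 40.2, 24.4 and 23.9 CPM in control. Only the FST libraries were near 0. The interaction was 8.21 (SE 0.63, edgeR adjusted p = 0.00083, and 3.84e-57 with DESeq2, 3.84e-57 to 0.139 over all alternatives). Of its 485 runs of 31 bases, 334 (68.9%) also occur in transcripts of Hspe1, a mitochondrial chaperone gene, so reads could be split between the 2 genes. Summed with Hspe1, the level was 114, 123 and 114 CPM in FST+LIN28B, 129, 73.2 and 130 CPM in FST, 136, 113 and 136 CPM in LIN28B and 99.3, 117 and 115 CPM in control, and the FST libraries no longer stood apart except for replicate 2. How the reads were shared out was not tested.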

How the data were processed

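RNA was sequenced from 12 cochlear organoid cultures, 3 per condition, as stranded total RNA with paired reads on a NovaSeq. The authors pseudoaligned the reads with kallisto 0.46.1 and deposited estimated counts per transcript, not normalized. Here the expected counts were summed per gene over 116816 of 118489 transcripts found in GENCODE release M21 (the other 1673 held 0.543% to 0.598% of a library) and rounded to whole numbers. Totals of 42.7 to 65.3 M counts and a biological coefficient of variation of 0.266 set the precision, with a median SE of 0.26 for the interaction. Counts from human transgenes fall on mouse genes.

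Genes were filtered with filterByExpr (minimum count 10, minimum total 15) and fitted over all 12 libraries with edgeR 4.0.16 (TMM scaling, robust quasi-likelihood test) in R 4.3.3, with Benjamini-Hochberg adjustment over 18780 genes and a threshold of 0.05. The alternatives were DESeq2 1.42.0 (51 genes without an adjusted p), limma 3.58.1 (log2 of TPM plus 1 or 0.1, and voom quality weights), other scalings and filters, length-scaled TPM, a threshold of 0.01, the replicate block, the Y-linked level as a covariate, and leaving out each library. DESeq2 without FST replicate 2, and the response classes, medians and separated conditions without that library, were added after the data had been seen. The scripts were tested on simulated data with a smaller spread than these libraries and changes in FST+LIN28B alone. That test does not show which sizes of interaction these data could detect. Python 3.11.15, pandas 2.3.3 and matplotlib 3.10.9 made tables and plots.

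The members and the 42 gene lists were chosen with earlier results of these data known. Genes to name were, per direction, the 12 with at least 2 CPM that were called or otherwise had the smallest interaction p. Predicted and accession symbols were left out. Genes the study names were added, and per list up to 4 called genes or the 2 of smallest p. This rule gave 116 genes, and the text describes only a part of them. Left out were, among others, Zeb1 (interaction -0.01), Tecta (0.12), S100a1 (0.24) and Zbtb20 (-0.66). Of the 35 genes the study names, 16 lay above 0 and 19 below, with a median of -0.065. Without FST replicate 2 the median was 0.026. DESeq2 called 0 of the 35 in the interaction. Slc6a15, Lrrn3, Otoa, Myc and AC117239.2 were chosen after their values were seen, as were the marker genes named for their level. The p-values measure the spread over 3 samples per condition. Sequences came from RefSeq tables of build GRCm38.p6.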

Additional observations from a re-analysis of the deposited data

Results flagged for a closer look

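AC117239.2 had a response to LIN28B that differed by 8.21 in log2 with and without the FST transgene, and edgeR's quasi-likelihood test of that difference gave an adjusted p of 0.00083 (3.84e-57 to 0.139 over all alternatives). The gene was near 0 in 3 of 3 FST libraries and present in the other 9. Its sum with Hspe1, with which it shares 68.9% of its runs of 31 bases, did not set the FST libraries apart as a group.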

How the results depend on the processing

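The interaction count of 1 gene was 53 with DESeq2, 2 with RLE size factors, without the filter or without the 10 most abundant genes, 0 with limma on log2(TPM + 0.1) (749 at an unadjusted p under 0.05), 66 with voom quality weights, 198 with DESeq2 and no FST replicate 2, and 1 to 2 with one library left out. The 617 genes called in FST+LIN28B against FST became 179 at 0.01, 1271 with DESeq2, 2446 with voom weights, 399 with the replicate block, 367 with the Y-linked level in the design, 1705 with DESeq2 and no FST replicate 2, and 217 to 843 with one library left out, the lowest without FST+LIN28B replicate 1. The 1579 called in LIN28B against control became 644 at a threshold of 0.01, 2425 with DESeq2, 5597 with voom weights, 3887 with DESeq2 and no FST replicate 2, and 664 to 3151 with one library left out, the lowest without control replicate 3 and the highest without FST replicate 2. The cause was not tested. The replicate block left 1 gene called in the interaction. The labels do not say what the replicate numbers stand for. With the condition means taken out, same-numbered samples had correlations of -0.327 to 0.185. Samples of different number were not compared, so whether the numbers mark a pairing was not settled.

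Of 76 named genes, 73 kept their sign under all 14 settings on all libraries or without FST replicate 2 and all 12 that left out a library. Fst turned to -0.31 with voom weights and -0.36 with DESeq2 and no FST replicate 2 (-0.36 to 0.45 with one library left out), Pou4f3 to -0.39 with voom weights (-0.38 to 1.35 with one library left out), and Tgfb2, near 0 throughout, to -0.076 with voom weights (-0.12 to 0.10 with one library left out). AC117239.2 had 8.2 and an adjusted p of 0.139 with limma on log2(TPM + 0.1). DESeq2, voom weights or another setting called 41 further genes. The median of all genes in the interaction moved by less than 0.1 under every scaling. The median SE of 0.26 for the interaction limits what single genes can show.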
